A study of Homo sapiens with 6 samples.

Results

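Cadherins and protocadherins make up a large group of adhesion genes, and their compartment scores were followed in 6 libraries of the breast cancer line T47D. The members are the autosomal protein-coding genes of the GENCODE annotation on hg19 whose symbol is CDH or PCDH with a number, or begins with PCDHA, PCDHB or PCDHG. This rule gave 86 genes among 18902 autosomal protein-coding genes with a scored bin, and 3 further symbols on the sex chromosomes were left out. The 53 clustered protocadherin genes lie side by side on chromosome 5 and share their bins, so they were counted as 1 locus, which with the 33 other genes makes 34 loci. The rule uses only names and positions and no measured value.

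Cadherins are membrane proteins that hold neighbouring cells together through calcium-dependent contacts between their extracellular repeats. Type I and type II cadherins also bind catenins inside the cell, which link the contact to the actin cytoskeleton. E-cadherin, encoded by CDH1, is the main cadherin of luminal breast epithelium, whereas most type II cadherins are known from the nervous system, the vessel wall and mesenchyme. Protocadherins do not bind the classical catenins, and the clustered ones give single neurons distinct surface identities.

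T47D is a long-established luminal line that carries the estrogen receptor. Parental cells were deprived of hormone for 72 h and taken without treatment (T0) or after exposure to 100 nM β-estradiol (E2) for 1 h, named T1, 4 h, named T4, 16 h, named T16, or 24 h, named T24. The sixth library comes from T47D cells resistant to tamoxifen (TamR), which the labels call untreated and the study's methods describe as grown in 100 nM tamoxifen. The study's reporting summary describes replicates for its data in general, and its text says that replicates of another breast cancer line were combined before compartments were called. Neither names T47D, so whether a T47D library pools replicate cultures is not given in the sources used here. TCC, a variant of Hi-C with ligation on a solid support, was used to read contacts between genomic regions. The deposited score of a 100 Kb bin is the first eigenvector of the corrected contact matrix, here multiplied by 1000. Bins above 0 belong to compartment A, which holds active chromatin, and bins below 0 to compartment B, which holds inactive chromatin. The score of a gene is the mean over the bins that it overlaps, and all 143 bins of the members carried a score in every library.

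Each condition has 1 library, so differences between conditions have no replicate check and were not tested. The 5 parental libraries served as the yardstick. The spread among them holds library noise and E2 treatment together, and a value "outside the parental range" means above or below all 5. The 4 E2 libraries correlated with T0 at 0.986 to 0.994 over 26484 scored autosomal bins and TamR at 0.897, so TamR stands apart across the genome. The share of bins in A was 44.8% to 48.3%, and the depth behind a score is not known from these files.

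The bases before the start of 4 members are shown because these loci carry the contrasts described later: PCDHB2 is a clustered gene in compartment A, CDH9 stayed deep in B, CDH10 in the same B stretch had a higher score in TamR, and PCDH18 was in A in parental cells and in B in TamR. Each is 250 bases long, read 5′ to 3′ on the gene's strand, and ends just before the annotated start in RefSeq on GRCh38.p14. Capitals mark every CpG, the dinucleotide at which human DNA is methylated. The windows lie at chr5:141094365-141094614 (plus strand), chr5:27038587-27038836 (minus strand), chr5:24644979-24645228 (minus strand) and chr4:137532495-137532744 (minus strand).
PCDHB2: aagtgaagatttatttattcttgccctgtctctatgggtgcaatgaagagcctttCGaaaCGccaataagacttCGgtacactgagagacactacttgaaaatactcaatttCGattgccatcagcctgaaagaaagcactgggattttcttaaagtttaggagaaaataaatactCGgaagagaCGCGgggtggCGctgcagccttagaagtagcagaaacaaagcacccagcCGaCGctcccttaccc
CDH9: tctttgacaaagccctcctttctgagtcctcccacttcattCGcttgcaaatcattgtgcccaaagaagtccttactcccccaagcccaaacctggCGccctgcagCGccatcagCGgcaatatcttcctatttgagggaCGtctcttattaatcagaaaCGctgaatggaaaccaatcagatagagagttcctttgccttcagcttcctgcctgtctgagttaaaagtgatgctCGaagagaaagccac
CDH10: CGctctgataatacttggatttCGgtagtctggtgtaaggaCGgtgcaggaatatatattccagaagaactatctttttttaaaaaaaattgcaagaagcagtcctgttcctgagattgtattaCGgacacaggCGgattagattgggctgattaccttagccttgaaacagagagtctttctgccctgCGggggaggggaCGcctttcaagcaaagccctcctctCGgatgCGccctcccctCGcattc
PCDH18: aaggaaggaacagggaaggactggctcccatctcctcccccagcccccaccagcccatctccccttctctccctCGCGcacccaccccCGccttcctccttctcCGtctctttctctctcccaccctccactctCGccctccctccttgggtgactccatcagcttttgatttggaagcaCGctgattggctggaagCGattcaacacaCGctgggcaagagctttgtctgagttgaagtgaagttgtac

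These windows hold 10 CpG for PCDHB2, 7 for CDH9, 10 for CDH10 and 8 for PCDH18. The RefSeq table matched 67 of the 86 members, some with several starts. The median was 6 CpG per window for the 47 clustered symbols matched (52 windows), 5.5 for 4 single genes in A at T0 (6 windows) and 9.5 for 16 single genes in B at T0 (26 windows). Over all 35116 windows of the table the median was 11. In this matched subset the median was not higher for members in A than for members in B. The matched single genes in A were PCDH18, PCDH1, PCDH12 and CDH23. CDH1, CDH3, CDH15, CDH5, CDH16, CDH17, CDH22 and CDH24 were not matched, so the subset leaves out most single genes in A. Windows of single genes in B held 1 to 33 CpG, and the 4 sequences shown do not stand for their groups. Whether CpG content goes with compartment was not tested.

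Most of the 34 loci lay in inactive chromatin in these epithelial cells. At T0, 13 of 34 loci were in A, against 78.3% of all autosomal protein-coding genes. Counted as single genes, 65 of the 86 members were in A at T0, since the 53 clustered genes share 8 bins that were all in A. In all 6 libraries, 19 loci were in B, against 16.1% of all genes, and 12 were in A. The median score of the 34 loci was -2.22 at T0 and -3.00 in TamR, whereas the median over all genes was 5.69 and 5.83. PCDH18 was the single locus in A at T0 and in B in TamR, against 4.41% of all genes. CDH4 and CDH26 were in B at T0 and in A in TamR, against 4.89%. Read per starting compartment, this is 1 of 13 loci that began in A, where all genes had 5.63%, and 2 of 21 that began in B, where all genes had 22.5%.

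**Figure D1:**
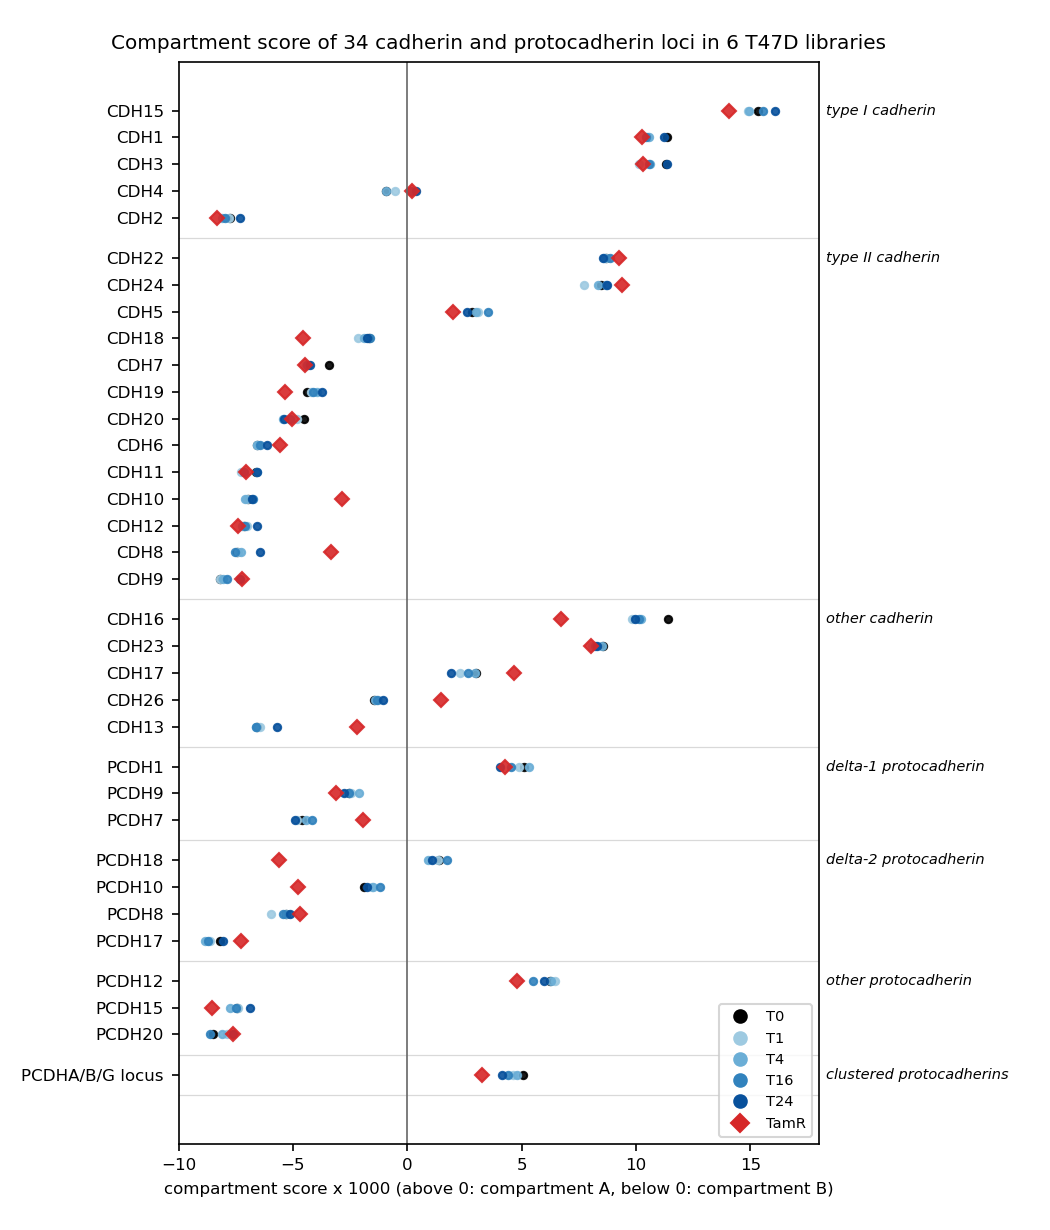
Compartment score (times 1000, horizontal axis) of each of the 34 loci in the 6 libraries, grouped by family and ordered within a family by T0. Circles are the 5 parental libraries and diamonds are TamR; CDH1, CDH3 and CDH15 sit right of 10 in every library, most type II cadherins lie left of 0, and PCDH18 is the locus whose diamond lies across 0 from circles on the A side.

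Of the type I cadherins, CDH1, CDH3 and CDH15 scored far above 0, CDH2 far below 0 and CDH4 near 0. CDH1 (E-cadherin, chr16:68771195-68869440 in hg19) scored 11.3 at T0, 10.5 at T1, 10.6 at T4, 10.4 at T16, 11.2 at T24 and 10.2 in TamR. Its neighbour CDH3 (P-cadherin, found in basal epithelium, chr16:68670092-68761371) scored 11.3, 10.2, 10.6, 10.6, 11.3 and 10.3 in the same order. The pair overlap 1 common bin, so their values are not independent. TamR lay below the parental range for CDH1 and inside it for CDH3, with differences from the parental mean of -0.57 (parental SD 0.43, n = 5) and -0.51 (parental SD 0.51, n = 5), close to the median of -0.47 over all genes. At T0 CDH1 stood at percentile 95.3 of scored autosomal bins and in TamR at percentile 93.6, and by percentile its TamR value lay inside the parental range.

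CDH15 (M-cadherin, known from muscle) had the highest score of all members, with 15.4, 14.9, 14.9, 15.5 and 16.1 in the parental libraries from T0 to T24 and 14.0 in TamR. CDH2 (N-cadherin, the cadherin of neurons and of many mesenchymal cells) was in B throughout, with -7.76, -7.79, -8.08, -7.97 and -7.31 in the parental libraries and -8.30 in TamR. Neither gene came near the border in any library.

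CDH4 (R-cadherin, expressed in retina and brain) was the type I gene at the border. Its score was -0.94 at T0, -0.55 at T1, -0.92 at T4, 0.17 at T16, 0.37 at T24 and 0.23 in TamR, so the later E2 libraries and TamR lay just above 0 and the earlier ones just below. The TamR value was inside the parental range. CDH4 spans 8 bins at chr20:59827317-60515673, of which 1 was in A at T0 and 3 in TamR. The A bin common to both is the last one, at 5.77 at T0 and 5.78 in TamR, while the first bin, which holds the gene start, stayed in B at -3.17 and -1.93. The bins that were B at T0 and A in TamR were the pair beside the A end, which read -0.88 and -0.22 at T0, 1.14 and 1.98 at T24 and 0.81 and 1.18 in TamR.

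CDH1 and CDH3 were set against the 13 type II cadherins. Their mean was 11.3 at T0, 10.3 at T1, 10.6 at T4, 10.5 at T16, 11.3 at T24 and 10.3 in TamR. The type II median was -4.50, -4.84, -5.43, -5.14, -5.38 and -4.58 in the same libraries. The difference was 15.8 at T0, 15.2 at T1, 16.0 at T4, 15.6 at T16, 16.7 at T24 and 14.8 in TamR, or 66.3 percentile points at T0 and 65.7 in TamR. The highest type II score was 8.69 at T0 and 9.37 in TamR, so the mean of CDH1 and CDH3 was above every type II gene in each of the 6 libraries. Among the type II genes, 3 of 13 (CDH5, CDH22 and CDH24) were in A and 10 were in B, each in all 6 libraries. Most of the genes in B share a run of B bins with another type II gene. CDH5 lies in the same A run as CDH1 and CDH3, so these genes are not all separate loci. The median difference between TamR and the parental mean was 0.01 for the type II genes and -0.47 for all genes.

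On chromosome 5p, 5 type II genes of the nervous system and kidney, CDH18, CDH12, CDH10, CDH9 and CDH6, follow each other over a gene-poor stretch. At T0 the starts of all 5 lay in 1 unbroken run of B bins of 11500 kb, and in TamR the run was 13900 kb long. The T0 run ends at a bin within CDH18 that read 0.03 at T0. The same bin read -0.20, -0.48, -0.02 and -0.04 at T1, T4, T16 and T24. At T1 and T24 every bin of CDH18 was below 0, so a run longer than that of T0 was not particular to TamR. The telomeric end of the TamR run is a bin without a score, and bins past that gap were also in B in TamR. Within this run the scores in TamR moved in different directions. CDH10 (chr5:24487209-24645087 in hg19) scored -6.96, -7.00, -7.10, -6.76 and -6.78 in the parental libraries and -2.87 in TamR, which is 4.05 above the parental mean (parental SD 0.15, n = 5). All 3 of its bins lay within a stretch of 14 bins (1400 kb) in which TamR exceeded the parental mean by more than 2. CDH10 stayed in B in every library.

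CDH18, at the telomeric end of the group, lay lower in TamR. Its scores were -1.69, -2.16, -1.91, -1.61 and -1.75 in the parental libraries and -4.58 in TamR, a difference of -2.75 (parental SD 0.22, n = 5). CDH18 covers 12 bins, 3 of which were in A at T0 with scores of 0.03 to 0.62. None of the 12 was in A at T1, at T24 or in TamR. The lower values ran beyond the gene over 27 bins (2700 kb), where the mean was -2.11 in the parental libraries and -6.45 in TamR. This stretch stops at a bin without a score in T0 and TamR, not at a return to parental values. The next bin past that gap read 0.07 at T0 and -8.41 in TamR.

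The other genes of the group differed less. CDH12 scored -7.14, -6.99, -7.22, -7.10 and -6.57 in the parental libraries and -7.39 in TamR. CDH9 scored -8.20, -8.17, -8.05, -7.86 and -7.31 and then -7.23 in TamR, just above T24. CDH6 (K-cadherin, known from kidney) scored -6.57, -6.55, -6.58, -6.43 and -6.12 and then -5.57 in TamR. CDH9 and CDH6 were above the parental range and CDH12 below it, each by less than 1 from the parental mean.

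**Figure D2:**
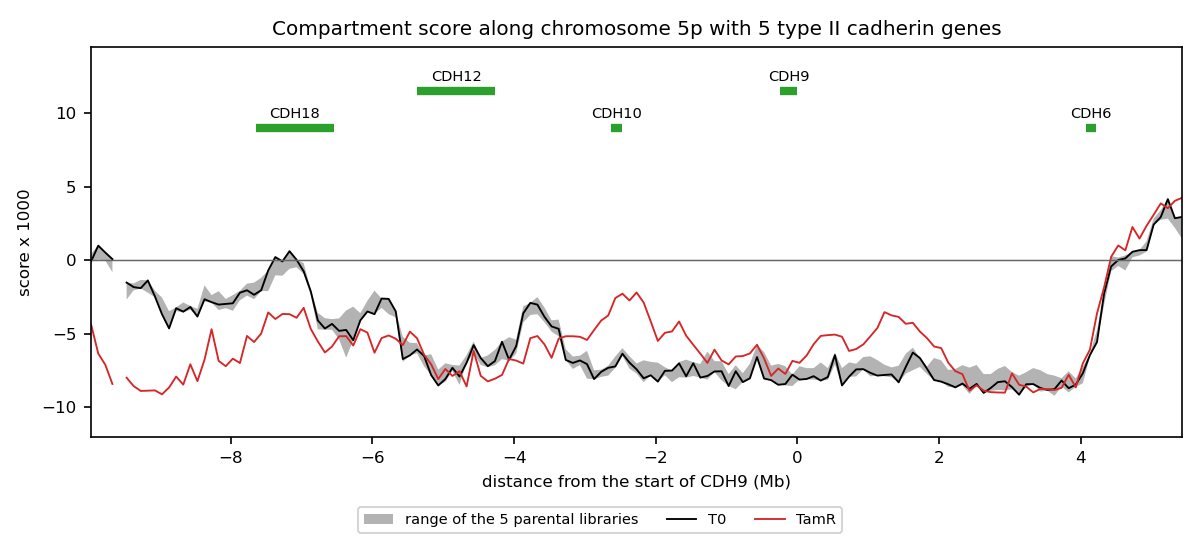
Compartment score (times 1000) of 100 Kb bins against distance from the start of CDH9 in Mb, with the 5 type II cadherin genes as bars above. The grey band is the range of the 5 parental libraries, the black line is T0 and the red line is TamR; the red line lies below the band across CDH18 and above it across CDH10, where it reads -2.87 on average against -6.96 at T0.

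Chromosome 16q carries 8 cadherins of 3 families, in alternating blocks. CDH8 and CDH11 shared a B run of 7600 kb at T0, and CDH5, CDH16, CDH3 and CDH1 shared the A run of 4900 kb that follows it. CDH11 (OB-cadherin, of osteoblasts and mesenchyme) was in B with -6.62, -7.29, -6.59, -7.13 and -6.58 in the parental libraries and -7.07 in TamR, inside the parental range. CDH8, a neuronal type II cadherin, had -7.46, -7.40, -7.25, -7.54 and -6.45 and then -3.35 in TamR, 3.88 above the parental mean (parental SD 0.44, n = 5). TamR exceeded the parental mean by more than 2 in a stretch of 6 bins, 5 of which are the gene's own.

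CDH5 (VE-cadherin of the endothelium) lies in the first bins of the A run, with 2.83, 3.09, 3.01, 3.55 and 2.60 in the parental libraries and 2.005 in TamR. CDH16 (kidney-specific cadherin) lies deeper in the run and scored 11.4, 9.82, 10.2, 10.1 and 9.96 in the parental libraries. In TamR it scored 6.73, which is lower by 3.58 than the parental mean (parental SD 0.64, n = 5) and still in A. All 4 members of this run were lower in TamR than their parental means, by sizes that ranged from -0.51 at CDH3 and -0.57 at CDH1 through -1.01 at CDH5 to -3.58 at CDH16.

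CDH13 (T-cadherin, anchored to the membrane by a lipid rather than a transmembrane segment, chr16:82660570-83834245) scored -6.59, -6.46, -6.63, -6.60 and -5.68 in the parental libraries and -2.18 in TamR. TamR exceeded the parental mean by 4.21 (parental SD 0.40, n = 5), the most of any member, and by more than 2 in each of the gene's 13 bins. The last 2 of these bins, next to the A block of CDH15, were at -4.32 and -1.62 at T0 and at 0.86 and 1.15 in TamR. The first bin, with the gene start, was at -7.10 at T0 and -1.83 in TamR, so the gene start stayed in B. The stretch of higher values was 2200 kb long and reached from upstream of the gene to just past its end.

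**Figure D3:**
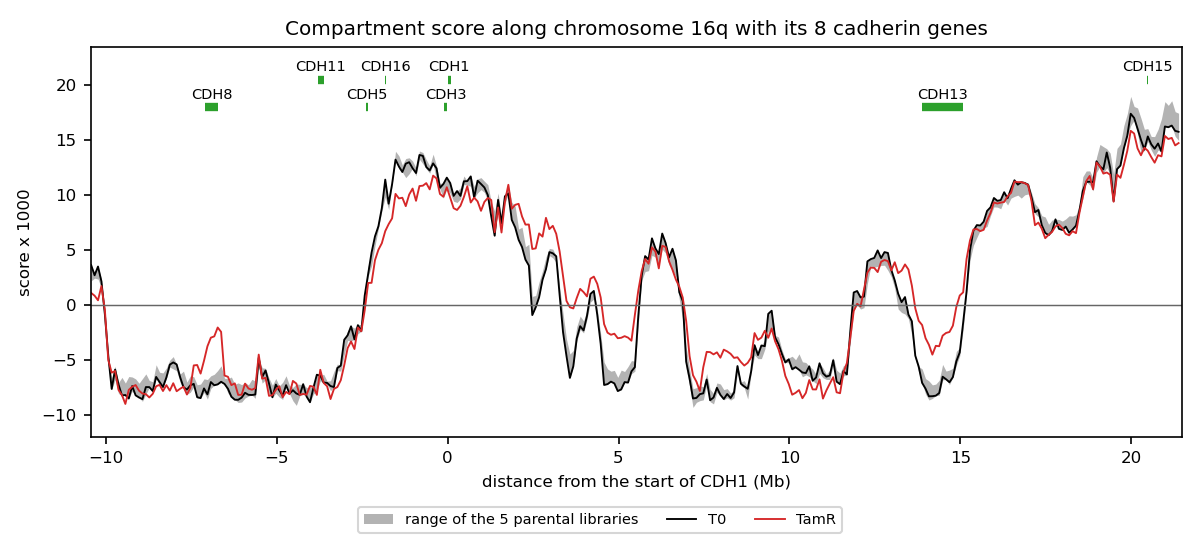
Compartment score (times 1000) of 100 Kb bins along chromosome 16q against distance from the start of CDH1 in Mb, with the 8 cadherin genes as bars above. The grey band is the range of the 5 parental libraries, the black line T0 and the red line TamR; the red line is above the band at CDH8 and CDH13, below it at CDH16 and close to it at CDH11 and CDH1.

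The remaining type II genes lie on chromosomes 14, 18 and 20. CDH24 scored 8.47, 7.71, 8.32, 8.68 and 8.74 in the parental libraries and 9.37 in TamR. CDH22, known from brain, scored 8.69, 8.68, 8.59, 8.88 and 8.54 and then 9.28 in TamR. These A members were above the parental range in TamR, whereas CDH5 was below it. On chromosome 18, CDH20 had -4.50, -4.84, -5.43, -5.14 and -5.38 and then -5.05 in TamR, inside the parental range. CDH7 had -3.44, -4.44, -4.32, -4.38 and -4.27 and then -4.47 in TamR, just below T1. CDH19, a cadherin of the Schwann cell lineage, had -4.37, -4.23, -3.93, -4.11 and -3.72 and then -5.36 in TamR, a difference of -1.28 (parental SD 0.25, n = 5). CDH7 and CDH19 share a B run of 10800 kb at T0.

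Of the 5 atypical cadherins outside types I and II, 3 were in A at T0 (CDH16, CDH17 and CDH23). CDH23, which with PCDH15 forms the tip link of hair cells in the inner ear, was in A with 8.54, 8.09, 8.52, 8.23 and 8.30 in the parental libraries and 8.05 in TamR. Its partner PCDH15 was in B with -7.45, -7.38, -7.75, -7.51 and -6.88 and then -8.53 in TamR, the lowest TamR score among the members. CDH17 (liver-intestine cadherin) was in A with 3.00, 2.31, 2.96, 2.64 and 1.89 and then 4.65 in TamR, 2.09 above the parental mean (parental SD 0.47, n = 5). The A run that holds CDH17 was 1600 kb long at T0 and 11900 kb in TamR.

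CDH26, a cadherin of epithelia, was at -1.47, -1.29, -1.42, -1.31 and -1.07 in the parental libraries and at 1.46 in TamR, 2.77 above the parental mean (parental SD 0.16, n = 5). It overlaps 2 bins at chr20:58533478-58609066. The bin with the gene start was in A in all 6 libraries, at 0.24 at T0 and 2.87 in TamR, and the next bin was at -3.18 at T0 and 0.05 in TamR. The A run that holds the gene start was 300 kb at T0 and 3600 kb in TamR. Each of these bins was among the weakest 10% of absolute scores in at least 1 library, so the sign of CDH26 is less certain than that of most members.

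Of the 10 protocadherins outside the cluster, 3 were in A at T0. PCDH1 scored 5.10, 4.88, 5.33, 4.53 and 4.04 in the parental libraries and 4.29 in TamR, inside the parental range. PCDH12 (endothelial protocadherin) scored 6.22, 6.45, 6.28, 5.51 and 5.98 and then 4.78 in TamR, below that range. PCDH18, a delta-2 protocadherin, was the third.

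PCDH18 (chr4:138440072-138453648 in hg19) showed the largest TamR difference among the members. It scored 1.40, 1.33, 0.89, 1.76 and 1.08 in the parental libraries and -5.60 in TamR, a difference of -6.89 (parental SD 0.33, n = 5). The gene lies in 1 bin, and at T0 this bin belonged to an A island of 400 kb. The bins on either side of the island read -0.05 and -0.49 at T0, so its length rests on values near 0. In TamR the bin lay inside a B run of 10100 kb that also held PCDH10. The parental scores are low, and at least 1 of them was among the weakest 10% of absolute scores in its library, while the TamR score was at percentile 21.98 of scored bins.

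PCDH10, a delta-2 protocadherin centromeric of PCDH18, was in B in every library and lower in TamR. Its scores were -1.88, -1.56, -1.49, -1.18 and -1.74 in the parental libraries and -4.77 in TamR, a difference of -3.20 (parental SD 0.27, n = 5). Around PCDH10, TamR was lower than the parental mean by more than 2 in each of 25 consecutive bins, and around PCDH18 in 43. These stretches of 2500 kb and 4300 kb are separated by 1 bin, so both genes belong to nearly the same lower region rather than to separate local differences.

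PCDH7, on the short arm of the same chromosome, moved the other way. It scored -4.62, -4.81, -4.42, -4.19 and -4.90 in the parental libraries and -1.93 in TamR, 2.65 above the parental mean (parental SD 0.29, n = 5), and stayed in B. On chromosome 13, PCDH8, PCDH17 and PCDH20 shared a B run of 11700 kb at T0 and PCDH9 lay in another of 4900 kb. In TamR all 4 lay in a single B run of 20500 kb. PCDH8 scored -5.31, -5.97, -5.32, -5.43 and -5.13 and then -4.70 in TamR. PCDH17 scored -8.19, -8.64, -8.82, -8.72 and -8.07 and then -7.27 in TamR. PCDH20 scored -8.51, -7.90, -8.09, -8.61 and -7.60 and then -7.61 in TamR, inside the parental range. PCDH9 scored -2.56, -2.46, -2.10, -2.56 and -2.75 and then -3.14 in TamR. The longer run therefore went with higher scores at PCDH8 and PCDH17 and a lower one at PCDH9.

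The clustered protocadherins, best known from neurons, lay in compartment A in all 6 libraries. The locus (chr5:140165721-140892544 in hg19) holds 15 alpha, 16 beta and 22 gamma genes in 8 bins, and each of the 8 bins was above 0 in every library. The locus scored 5.06 at T0, 4.61 at T1, 4.79 at T4, 4.43 at T16, 4.13 at T24 and 3.25 in TamR. TamR was below the parental range, with a difference of -1.36 (parental SD 0.35, n = 5), and stood at percentile 68.8 against 77.3 at T0. PCDH1 and PCDH12 share the A run of the cluster, which was 6300 kb at T0 and 11300 kb in TamR.

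The alpha, beta and gamma subclusters differed in how far TamR lay from the parental libraries. The alpha genes scored 4.67, 4.64, 4.89, 4.46 and 4.09 from T0 to T24 and 3.32 in TamR, a difference of -1.23 (parental SD 0.30, n = 5). The beta genes scored 5.57, 5.25, 5.21, 4.79 and 4.78 and then 3.05 in TamR, a difference of -2.08 (parental SD 0.34, n = 5). The gamma genes scored 4.89, 3.61, 3.99, 3.84 and 3.21 and then 3.44 in TamR, a difference of -0.47 (parental SD 0.62, n = 5) that lies inside the parental range. At the gamma genes the untreated T0 library was the highest of the 6 and T24 the lowest.

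**Figure D4:**
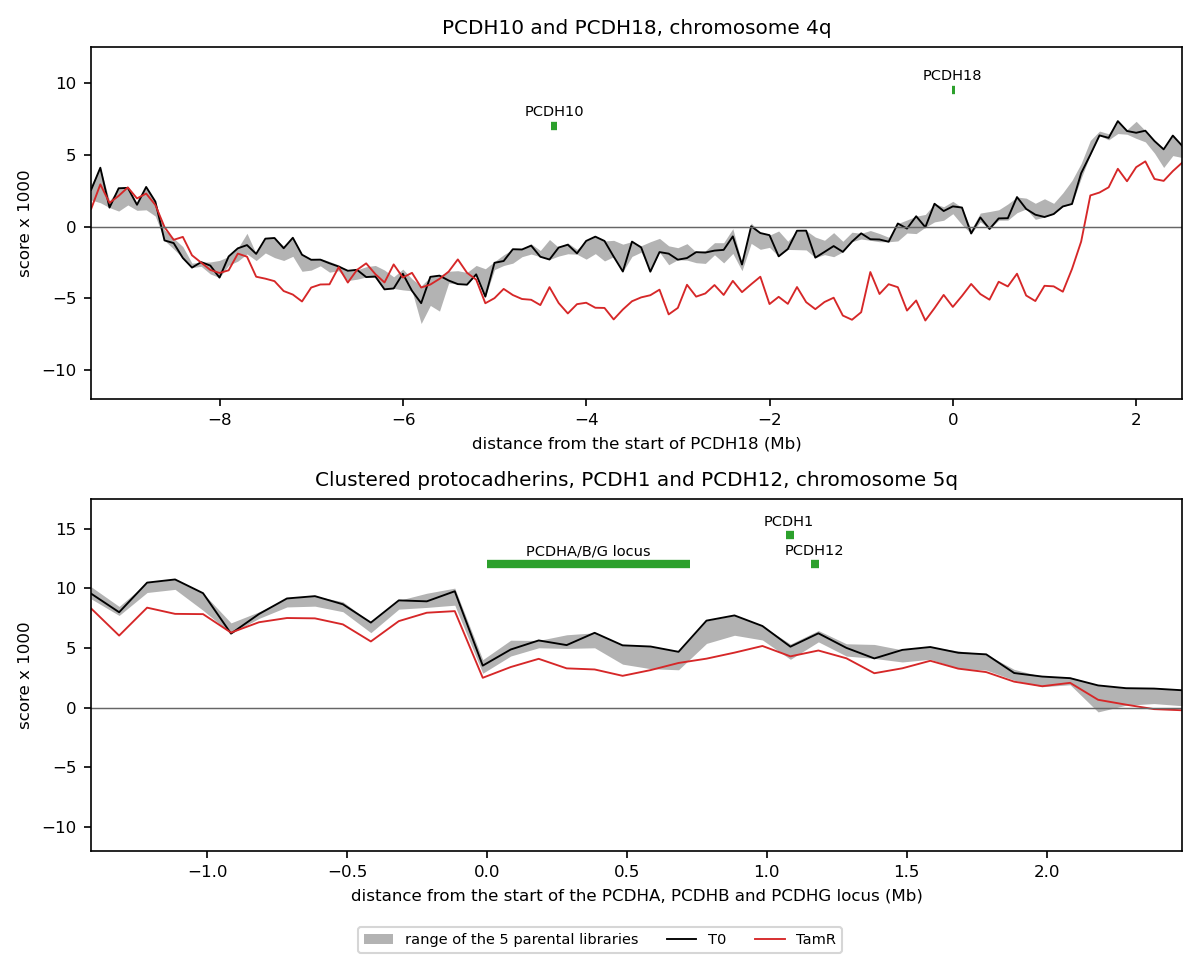
Compartment score (times 1000) of 100 Kb bins around PCDH18 and PCDH10 (upper panel, distance from the start of PCDH18 in Mb) and around the clustered protocadherins, PCDH1 and PCDH12 (lower panel, distance from the start of the cluster in Mb). The grey band is the range of the 5 parental libraries, the black line T0 and the red line TamR; in the upper panel the red line runs below the band from PCDH10 to beyond PCDH18, and in the lower panel it lies above 0 and mostly under the band across the cluster.

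Across all members, TamR was above the parental range at 12 of 34 loci, against 30.1% of all genes, and below it at 16, against 47.2%. These shares of members are near those of all genes. TamR was higher than the parental mean by more than 2 at 6 loci (CDH10, CDH8, CDH17, CDH13, CDH26 and PCDH7), against 13.8% of all genes, and lower by more than 2 at 4 (CDH18, CDH16, PCDH10 and PCDH18), against 15.6%. Of the 6 higher loci, CDH17 was in A at T0 and the other 5 in B. When scores were replaced by their percentile within each library, TamR was above the parental range at 13 loci, 12 of them the same, and below it at 12, 11 of them the same. The median difference from the parental mean was -0.30 for the members and -0.47 for all genes.

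**Figure D5:**
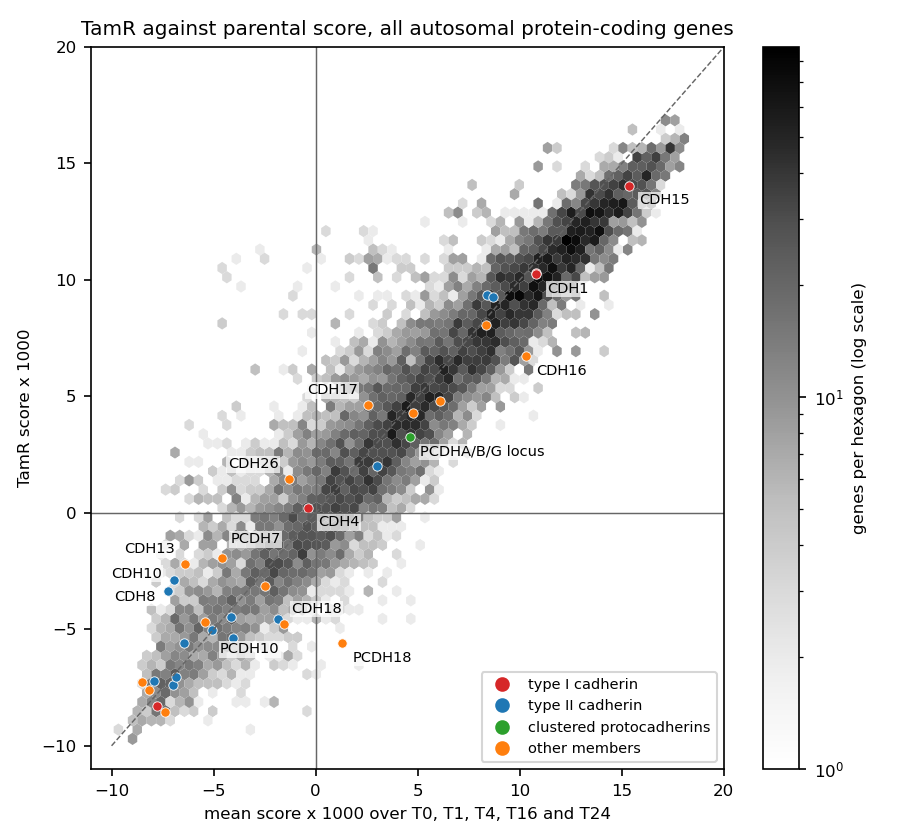
TamR score against the mean score of the 5 parental libraries (both times 1000) for all 18902 autosomal protein-coding genes (grey hexagons, darker for more genes on a log scale) and the 34 member loci (coloured points, by family). The dashed line marks equal scores; PCDH18 lies farthest below it among the members, and CDH13, CDH10 and CDH8 lie above it within compartment B.

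Few members changed sign over the E2 time course. CDH4 was the single locus whose sign in at least 1 E2 library differed from T0, against 5.09% of all genes. By bins, 6 of 143 member bins (4 of CDH18 and 2 of CDH4) had such a sign, against 7.04% of all scored bins. From T0 to TamR, 4 member bins were A and then B (3 of CDH18 and 1 of PCDH18), against 6.22%, and 5 were B and then A (2 each of CDH4 and CDH13 and 1 of CDH26), against 7.56%. The median range over the 5 parental libraries was 0.88 for the loci, from 0.33 to 1.61, and 1.10 for all genes. T24 held the highest of the 5 parental scores at 17 of 34 loci, against 35.6% of all genes, and the lowest at 7, against 28.7%. A larger share of the members than of all genes lay in B, and these shares were not computed within B.

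Members in A and B differed in the sequence and gene content around them. Bins of the 13 loci in A at T0 had a median GC content of 48.3% (37.1% to 57.0%), and those of the 21 in B 35.9% (33.4% to 51.9%). Within 500 kb of the members in A there was a median of 19 protein-coding gene starts, the gene's own included, against 1 for the members in B. The members in B were also longer, with a median of 222 kb against 38.1 kb. Over the 34 loci the T0 score and GC content had a Pearson r of 0.816, and over all genes 0.773, as a description of points that share base composition with their neighbours. PCDH18 stood out among the A members for its GC content of 37.1%, the lowest, and for having no other gene start within that distance, while CDH4 had 51.9%, the highest of the B members. Whether base composition or gene density has a part in the scores was not tested.

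The catenins and other cytoplasmic partners of classical cadherins were also scored. Of 11 partner genes, 8 were in A at T0, near the 78.3% of all genes, and their median score of 1.95 was below the 5.69 of all genes. JUP (plakoglobin) scored 12.01 at T0 and 12.06 in TamR, CTNNA1 (alpha-catenin of epithelia) 8.61 and 6.86, and CTNNB1 (beta-catenin) 0.91 and 1.49. PKP4, an armadillo protein of the p120 family, was in A in the 5 parental libraries, with 1.95 at T0, and in B in TamR with -0.56. CTNND2 (delta-catenin of neurons) was just above 0 at T0 with 0.13 and in B in the 4 E2 libraries, with -0.52, -0.45, -0.69 and -0.78, and in TamR with -1.17. These 2 of 11 were A at T0 and B in TamR, against 4.41% of all genes, and 0 of 11 were B and then A, against 4.89%. Read per starting compartment, this is 2 of 8 that began in A, where all genes had 5.63%, and 0 of 3 that began in B, where all genes had 22.5%. The parental mean of CTNND2 was -0.46, so against that mean PKP4 alone was A and then B. CTNND1 (p120-catenin), which binds E-cadherin at the membrane, was in B in all 6 libraries, with -0.32 at T0 and -0.04 in TamR. CDH1 was among the highest-scoring members. CTNND1 lay near the border, at percentile 51.4 at T0 and 51.5 in TamR. These scores were above the library medians of -0.59 and -0.31, so its compartment there depends on where the border is set.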

How the data were processed

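For each of the 6 libraries the authors deposited 1 score per 100 Kb bin of hg19, with 0 where a bin has no value. The study's methods give iterative alignment with bowtie2, removal of bins with low coverage, truncation of extreme interchromosomal counts, iterative correction, removal of contacts within chromosomes and the first eigenvector from HiCLib. The squared scores sum to 0.998 to 0.999 in each library, so their size is relative to other bins of that library.

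Scores were multiplied by 1000, averaged over the scored bins that a gene overlaps (GENCODE release 44 lifted to GRCh37), and called A above 0 and B below 0. Runs are unbroken stretches of 1 sign around the bin of the gene start. Their lengths were taken at T0 and in TamR and not in the E2 libraries. GC content came from GRCh37, whose chromosome lengths match the bins. The members and lists were chosen with earlier results of these data known. Named with values were type I and II cadherins, the cluster, loci with a change of sign or mixed bins, and the 3 highest and 3 lowest of the rest. CDH17, CDH13, PCDH7, PCDH10, PCDH1, PCDH8 and PCDH9, the difference of 2 from the parental mean and the partner and superfamily genes named were chosen after the values were seen. Alternatives were the bin of the gene start, weak bins left out, bins at 0 kept, a border at the median, the parental mean as reference, clustered genes counted singly, percentiles, scaling by SD and libraries left out. Python 3.11.15, numpy 2.4.6, pandas 2.3.3 and matplotlib 3.10.9 were used, and the scripts were tested on simulated tracks.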

Additional observations from a re-analysis of the deposited data

How the results depend on the processing

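No paired analysis was possible because there is 1 library per condition. Of 69 values computed under alternatives, 56 were classed as the same, 13 as moved and none changed direction. Counts were judged by a limit of 1.5 times the count, and differences against parental spread. The 56 include the TamR difference of CDH1 and CDH3 from the type II median. It was 14.8, and 15.6 both with the bin of the gene start and with weak bins left out. Also among the 56 are all values with bins at 0 kept, which could not differ because every member bin carried a score. They also include the values scaled by SD, which could differ little because the library SD was 6.03 to 6.05. With the bin of the gene start in place of the mean over a gene, 0 loci were B at T0 and A in TamR, 0 had another sign in E2, the difference of CDH1 and CDH3 from the type II median was 17.7 at T0, and the clustered locus differed from the parental mean by -0.84. With bins among the weakest 10% of absolute scores left out, CDH26 and PCDH18 lost all their bins, so 0 loci were A and then B and 1 was B and then A, and the CDH1 and CDH3 difference was 17.9 at T0. With each clustered gene counted singly, 65 members were in A at T0 and 46 were below the parental range in TamR. On percentiles the CDH1 and CDH3 difference was 66.3 points at T0 and 65.7 in TamR, which is a change of unit. Without T24 the counts above and below the parental range were 14 and 17, and without T0 12 and 16. A difference of 3 in place of 2, tried after the values were seen, left 3 loci higher in TamR, and a difference of 1 gave 10 lower.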

Other observations

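Other members of the cadherin superfamily, 24 genes, had 11 in A and 13 in B at T0, where 78.3% of all genes were in A. The 7 desmosomal cadherins, DSG1 to DSG4 and DSC1 to DSC3, which join epithelial cells at desmosomes, lie side by side on chromosome 18 and were in B in all 6 libraries. DSC2 scored -2.81 at T0 and -1.86 in TamR, and DSG2 -2.60 and -1.54. TamR was above the parental mean at each of these neighbours, by 0.62 for DSG2 to 1.80 for DSG4. They do not count as independent loci, and they make up 7 of the 13 genes in B. The 3 CELSR genes, seven-pass cadherins of planar cell polarity, were in A throughout, with 11.5, 9.97 and 14.9 for CELSR1, CELSR2 and CELSR3 at T0.

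The giant cadherins FAT3, FAT1 and FAT4 held the widest TamR differences of this list. They differed from the parental mean by 9.49, 4.71 and -4.58, and CLSTN2 followed with 3.43. FAT3 was in B in the parental libraries, at -7.37, -7.29, -7.36, -7.14 and -6.57 from T0 to T24, and in A in TamR at 2.34. FAT1 was at -1.16, -1.45, -0.99, -1.09 and -1.67 and then at 3.44 in TamR. FAT4 stayed in B and was lower, at -2.09 at T0 and -6.72 in TamR, and FAT2 stayed in A, at 1.68 and 0.83. FAT1 and FAT3 were the only genes of the 24 in B at T0 and in A in TamR. This is 2 of the 13 that began in B, where all genes had 22.5%. Most of these 13 are the neighbouring desmosomal genes, so that share rests on few separate loci and cannot be read as lower. Of the 11 that began in A, 0 were in B in TamR, where all genes had 5.63%.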
